A study of Mus musculus with 6 samples.

Results

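Integrins are cell surface receptors made of 1 alpha and 1 beta subunit, which hold cells to the extracellular matrix or to other cells and pass mechanical and chemical signals in both directions. In skeletal muscle, the laminin receptor of Itga7 and Itgb1 anchors the fiber to its basement membrane beside the dystrophin complex. Vessels use fibronectin and vitronectin receptors, and platelets carry the fibrinogen receptor of Itga2b and Itgb3, which links platelets during clotting. Described here are 10 integrin genes of fibers, vessels and platelets (Itga2b, Itgb3, Itga5, Itga6, Itga7, Itga9, Itgav, Itgb1, Itgb4 and Itgb5), taken by gene symbol from the 16800 genes listed with TPM and joined by gene identifier to the 45777 genes of the count table. All 10 passed the filter on low counts, which kept 16188 genes.

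The libraries were made from RNA of tibialis anterior (TA), a muscle of the lower leg, in male C57BL/6J mice that the sample labels give as 24 months old (the paper's text also gives older ages). The vehicle group (n = 3) received DMSO and Tween alone, and the BML-260 group (n = 3) received 5 mg/kg BML-260, the compound used to inhibit the phosphatase DUSP22, by daily intraperitoneal injection for 1 month. Whole muscle was used, so that RNA of fibers, vessels, nerve, blood and connective tissue is mixed in each library. The comparison asks which genes differ in old muscle after DUSP22 is targeted with the compound.

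The libraries held between 39522890 and 56998875 counts. Group differences come from a quasi-likelihood fit in edgeR over all 16188 genes. A log2 fold change is BML-260 over vehicle, and SE is its standard error. A gene is called where its fold change is at least 1.3 with an unadjusted p under 0.05, the threshold of the study's volcano plot. Of all tested genes, 5.75% passed it (4.86% lower and 0.896% higher with BML-260). The study itself tested with DESeq2, so the calls here are not its list of genes. After Benjamini-Hochberg adjustment, edgeR gave 0 genes with an adjusted p under 0.05, beside 966 with an unadjusted p under 0.05 and 82 genes (0.319% of those tested there) with an adjusted p under 0.05 in DESeq2's Wald test. Every call below is therefore a call without adjustment. Vehicle replicate 3 stood apart from the other libraries: its normalized count (count divided by DESeq2's size factor) was the highest of the 6 for 8 of the 10 integrin genes, against 32.3% of all tested genes. Skeletal fiber markers had a summed level of between 81724 and 117537 TPM in each library, and 0 of the 7 fiber markers were called.

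Levels between subunits were compared in TPM, which is scaled for transcript length. Itgb1, the beta subunit shared by most matrix receptors, was the most abundant, with 108 ± 31.1 TPM (SD, n = 3) with vehicle and 86.6 ± 11.3 TPM (SD, n = 3) with BML-260. It was followed by Itgb5, a vitronectin receptor subunit, at 53.7 ± 18.1 and 52.5 ± 4.03 TPM, and by Itga7 at 45.9 ± 25.9 and 38.4 ± 8.99 TPM (SD, n = 3 in each group). Itgav, which pairs with Itgb1, Itgb3 or Itgb5, had 12.7 ± 0.233 TPM with vehicle and 12.8 ± 1.74 TPM with BML-260 (SD, n = 3 in each group). The vehicle means of the other genes were 8.42 TPM for Itga6, 3.97 for Itga5, 2.60 for Itga9, 2.41 for Itgb4, 1.53 for Itgb3 and 1.11 for Itga2b. Among the vehicle libraries, neighbours in this order overlapped for Itgb5 and Itga7 and from Itga6 down to Itga2b. Among the BML-260 libraries they overlapped for Itga5 and Itgb4, for Itgb4 and Itga9, and for Itgb3 and Itga2b, whereas Itgb3 and Itga2b both lay below every other subunit. The order of the 6 most abundant genes was the same in both groups.

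**Figure D1:**
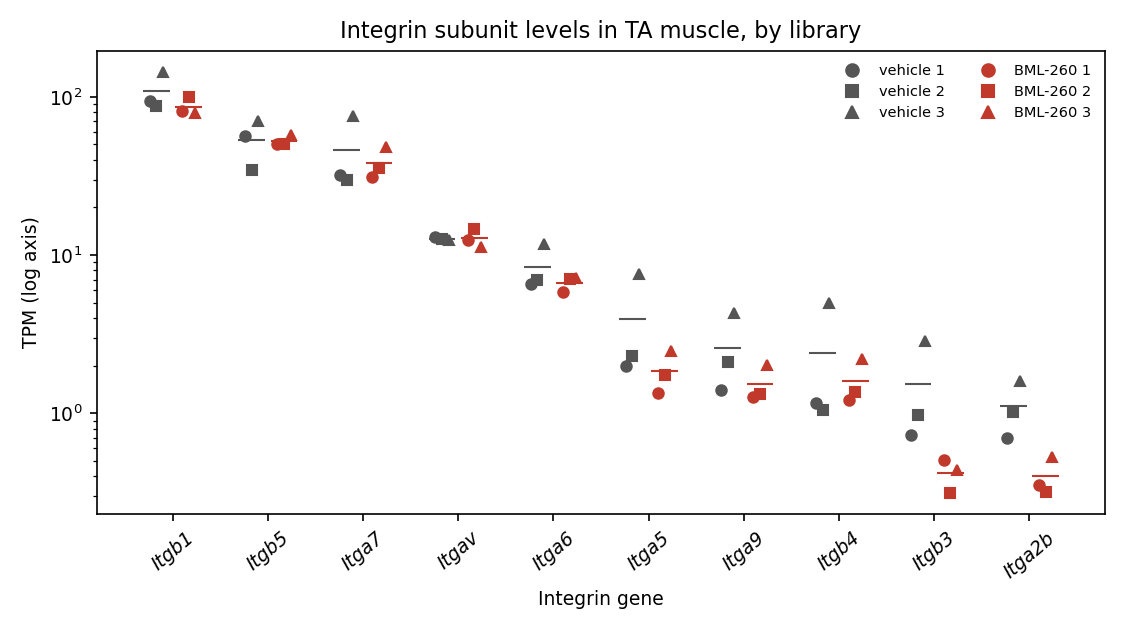
TPM (log axis) of the 10 integrin genes in each library, with vehicle in grey, BML-260 in red, a symbol for each replicate and a line at each group mean. The grey and red points separate for Itgb3 and Itga2b, at the low end of the scale, and vehicle replicate 3 (grey triangle) lies above the other vehicle libraries for every gene except Itgav.

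The groups differed most for the platelet receptor. Itga2b, the alpha chain known from platelets and their precursors, had normalized counts of 68.6, 105 and 114 in vehicle replicates 1, 2 and 3 and of 38.0, 31.0 and 51.3 in BML-260 replicates 1, 2 and 3. Every BML-260 library lay below every vehicle library. The level was 2.40-fold lower with BML-260 (log2 fold change -1.26, SE 0.33, 95% interval -2.02 to -0.50), and the Benjamini-Hochberg adjusted p in edgeR was 0.635. In TPM, Itga2b had 0.697, 1.02 and 1.61 with vehicle and 0.353, 0.318 and 0.531 with BML-260. These levels rest on between 31 and 152 reads in a library, the fewest of the 10 genes.

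Itgb3, which joins Itga2b on platelets and Itgav on vessels and other cells, had normalized counts of 119, 169 and 341 with vehicle and of 91.6, 51.0 and 70.9 with BML-260. The groups did not overlap here either. The level was 2.95-fold lower with BML-260 (log2 fold change -1.56, SE 0.41, 95% interval -2.50 to -0.61), and the adjusted p in edgeR was 0.649. In the edgeR test these were the only 2 of the 10 genes called, both lower (4.86% of all tested genes were called lower), and the only 2 whose libraries did not overlap between groups, which held in the lower direction for 6.70% of all tested genes. DESeq2's Wald test called 3 of the 10, with Itga5 added, against 4.57% of all genes tested there. Itga2b and Itgb3 are among the genes that the study draws for PI3K-Akt signaling on these same samples, so the calls are no independent evidence of a direction. The TPM ratio of Itga2b to Itgb3 was 0.961, 1.04 and 0.558 with vehicle and 0.698, 1.01 and 1.21 with BML-260, and these ranges overlapped. Without vehicle replicate 3, both genes were still called, with log2 fold changes of -1.12 for Itga2b (95% interval -1.89 to -0.35) and -1.01 for Itgb3 (95% interval -1.68 to -0.35).

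Several platelet markers were also lower with BML-260. Of 11 markers of platelets and megakaryocytes, 8 were tested, of which 3 were called lower and 0 higher (4.86% and 0.896% of all tested genes). The median log2 fold change was -1.03, against -0.0039 over all tested genes. Tubb1, the tubulin of the platelet rim, had normalized counts of 45.8, 113 and 60.6 with vehicle and of 11.2, 5 and 20.8 with BML-260 (log2 fold change -2.58, SE 0.58). Ppbp, a chemokine of platelet granules, had 67.7, 139 and 70.3 with vehicle and 44.1, 33.0 and 56.2 with BML-260. Clec1b, the podoplanin receptor, had 20.0, 29.2 and 20.2 with vehicle and 3.46, 0 and 11.0 with BML-260. The reads in a library were few, at 5 to 89 for Tubb1, 33 to 109 for Ppbp and 0 to 27 for Clec1b. The groups did not overlap for any of these 3 genes (6.70% of all tested genes lay apart in the lower direction). The highest library was vehicle replicate 2, not replicate 3, for each of these 3. The same number of markers, 3 of 8, was called lower without vehicle replicate 3 (2.92% of all tested genes were), with a median log2 fold change of -1.01. Gp6, the collagen receptor of platelets, also lay lower in every BML-260 library but was not called (log2 fold change -1.82, SE 0.83), at no more than 18 reads in any library. Gp1ba, Gp1bb and Gp9, members of the von Willebrand factor receptor, overlapped between groups at no more than 21 reads in any library, and Gp5 and Treml1 had too few reads to be tested. Pf4, a platelet chemokine with the highest mean TPM of the list, was 158, 150 and 545 with vehicle and 206, 111 and 106 with BML-260, with overlap. The summed TPM of the 5 listed markers with TPM was 13.4 to 50.8 with vehicle (at most 15.0 without replicate 3) and 8.49 to 12.9 with BML-260. In whole muscle, fewer platelets or other cells of a type cannot be told apart from less of their RNA per cell.

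**Figure D2:**
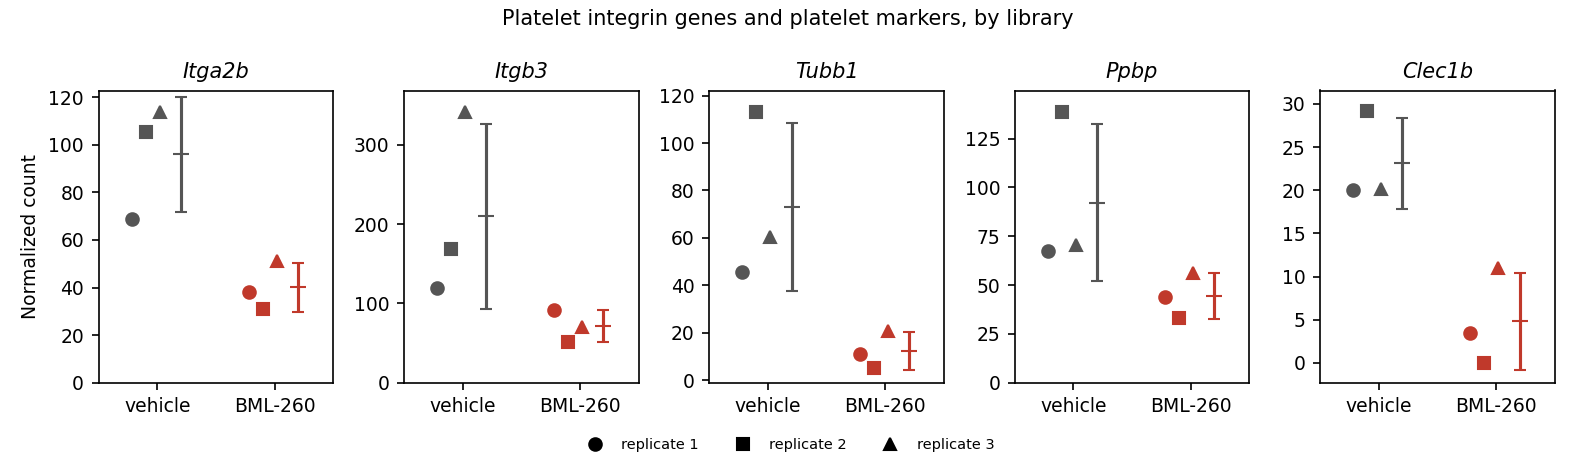
Normalized counts of Itga2b, Itgb3 and the 3 called platelet markers in each library, with the mean and SD of each group (n = 3) to the right of its points. The BML-260 points lie below the vehicle points in all 5 panels, and vehicle replicate 3 (triangle) is the highest for Itga2b and Itgb3 only.

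Markers of myeloid cells were lower as well. Over all tested genes, 4.86% were called lower with all libraries and 2.92% without vehicle replicate 3. Among 9 macrophage markers, 7 were called lower and 0 higher with BML-260 (median log2 fold change -1.31), and without vehicle replicate 3 the count was 6 (median -0.61). Their summed level was 129 to 545 TPM with vehicle (at most 129 without replicate 3) and 80.1 to 98.0 TPM with BML-260. Lyz2, a lysozyme with the highest mean TPM of that list, had a log2 fold change of -1.37, and of -0.57 without vehicle replicate 3. Adgre1, which encodes F4/80, had the smallest p of that list, with a log2 fold change of -1.08, and of -1.05 without that library. All 5 tested of 7 neutrophil markers were called lower, with and without vehicle replicate 3, and the summed level of the 4 listed with TPM was 23.8 to 801 TPM with vehicle (at most 165 without replicate 3) and 6.70 to 12.1 TPM with BML-260. S100a8 and S100a9, the calprotectin subunits, had log2 fold changes of -5.09 and -4.72, and of -3.49 and -3.45 without vehicle replicate 3. Ly6g and Mpo were not tested and had 0 reads in at least 1 library. The part of these cells in the Itga2b and Itgb3 values was not tested.

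The genomic setting of the platelet pair is given for orientation, with the RefSeq annotation of GRCm38.p6, the assembly behind the mm10 build of the files. Itga2b (gene identifier 16399) lies on chromosome 11 from 102453297 to 102469883 on the minus strand, and Itgb3 (16416) on the same chromosome from 104608000 to 104670476 on the plus strand. RefSeq lists no other gene within either span. Another annotation, GENCODE M21, places Gm23563 (misc_RNA, 102458724 to 102458974) within Itga2b on the same strand. Promoter sequences were found in the RefSeq promoter table for 6 of the 10 genes (Itga2b, Itga5, Itga9, Itgav, Itgb1 and Itgb5). For Itga9 and Itgav the entry does not lie before the gene but inside its RefSeq span. The Itga9 window began at 118711442 and the gene at 118606709, and the Itgav window at 83724147 and the gene at 83722303. The 250 bases before the start site of each entry were searched on both strands for 7 short motifs. These were the core that ETS factors recognise (GGAA), the box bound by Sp1 and its relatives in many housekeeping promoters (GGGCGG), a site of the GATA family known from megakaryocyte genes (AGATAA), the other common spelling of that site (TGATAA), the E-box of basic helix-loop-helix factors (CACGTG), the AP-1 site of Fos and Jun factors (TGACTCA) and the site of FOXO factors in atrophy genes of muscle (TGTTTAC), none of which contains another. The Itga2b window is printed because Itga2b was the called gene with an entry, and that of Itgb5, a gene of the same family that was not called, for contrast. Capitals mark every match on either strand, and both sequences run 5′ to 3′ on the strand of the gene (Itga2b, chr11:102469884-102470133, minus strand, and Itgb5, chr16:33829415-33829664, plus strand).
Itga2b: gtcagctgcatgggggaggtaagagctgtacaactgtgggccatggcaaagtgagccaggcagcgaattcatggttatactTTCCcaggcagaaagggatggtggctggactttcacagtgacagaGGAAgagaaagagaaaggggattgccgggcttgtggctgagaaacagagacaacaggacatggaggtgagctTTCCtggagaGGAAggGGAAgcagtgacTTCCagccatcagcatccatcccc
Itgb5: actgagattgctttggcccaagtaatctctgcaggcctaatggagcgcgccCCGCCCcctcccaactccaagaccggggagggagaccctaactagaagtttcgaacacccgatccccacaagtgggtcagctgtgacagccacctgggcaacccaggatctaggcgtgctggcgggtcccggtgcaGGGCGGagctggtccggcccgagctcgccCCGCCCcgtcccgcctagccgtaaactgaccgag
The Itga2b window held 6 matches to GGAA on either strand, a motif that 93.4% of all windows of this length in the table hold, and 0 matches to the others. The Itgb5 window held 3 matches to GGGCGG on either strand (32.7% of all windows hold it) and 0 to GGAA. None of the 6 windows held the first GATA spelling (9.99% of all windows hold it), the second (7.94%), the E-box (6.02%), the AP-1 site (4.46%) or the FOXO site (3.17%). These matches describe letters in 1 window for each gene, and were not tied to the expression values.

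The laminin receptor of the fiber did not differ detectably between the groups. Itga7 had normalized counts of 3892, 3807 and 6423 with vehicle and of 4103, 4182 and 5635 with BML-260. The groups overlapped, with a log2 fold change of -0.021 and a 95% interval of -0.56 to 0.52. Without vehicle replicate 3 the value was 0.26 (95% interval -0.10 to 0.63), and its sign also turned when BML-260 replicate 1 or 2 was left out. Itgb1 had 11144, 10829 and 12335 with vehicle and 10669, 11500 and 9078 with BML-260, again with overlap. The log2 fold change of Itgb1 was -0.14 (95% interval -0.50 to 0.22). The TPM ratio of Itga7 to Itgb1 was 0.343, 0.341 and 0.527 with vehicle and 0.381, 0.358 and 0.618 with BML-260, highest in the third replicate of both groups.

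Itgb5 and Itgav, which together form a vitronectin receptor, had log2 fold changes above 0 with all libraries. Itgb5 had normalized counts of 4662, 3070 and 3740 with vehicle and of 4237, 4334 and 4585 with BML-260 (log2 fold change 0.20, SE 0.17, 95% interval -0.20 to 0.59). The BML-260 libraries lay close together, within the range of the vehicle libraries. Itgav had 3085, 3004 and 2067 with vehicle and 3200, 3039 and 2539 with BML-260 (log2 fold change 0.10, SE 0.19, 95% interval -0.33 to 0.54). It was the only one of the 10 genes that was lowest in vehicle replicate 3, and without that library its log2 fold change was -0.064. As Itgb3 was lower while Itgav and Itgb5 were not called, the ratios of these genes to Itgb3 differed. Itgav over Itgb3, its partner, was 17.9, 12.9 and 4.35 in TPM with vehicle and 24.8, 46.5 and 25.6 with BML-260, without overlap. Itgb3 over Itgb5, the other beta subunit, was 0.0129, 0.0284 and 0.0409 in TPM with vehicle and 0.0101, 0.00627 and 0.00765 with BML-260, also without overlap. Both ratios contain Itgb3 and add no separate evidence.

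Itga5 and Itga9 were lower on average, mostly through 1 library. Itga5, the alpha chain of the fibronectin receptor of vessels and fibroblasts, had normalized counts of 249, 301 and 688 with vehicle and of 184, 214 and 299 with BML-260. Short of the threshold here (log2 fold change -0.83, SE 0.38, 95% interval -1.71 to 0.040), Itga5 was called in 5 of 13 alternative analyses. Without vehicle replicate 3 the log2 fold change of Itga5 was -0.25 (95% interval -0.76 to 0.26). Itga9, which binds tenascin and Svep1 in lymphatic vessels, had 277, 437 and 616 with vehicle and 278, 255 and 390 with BML-260. For Itga9 the log2 fold change was -0.53 (SE 0.30, 95% interval -1.21 to 0.15), and -0.22 without vehicle replicate 3. Itga9 overlaps the pseudogene Gm10157 on the other strand, which had between 50 and 92 reads in each library, and the handling of strand in the counting is not given in the sources used here. Of the endothelial markers, 0 of 10 were called (5.75% of all tested genes were), with a median log2 fold change of 0.00065. Their summed level was 123 to 179 TPM with vehicle and 112 to 162 TPM with BML-260. Egfl7, a secreted vessel factor with the highest mean TPM of that list, had a log2 fold change of 0.22. Fibroblast markers had 1 of 6 called lower (Col1a1, a chain of type I collagen, log2 fold change -0.43) and a median of -0.18. Of all tested genes, 4.86% were called lower. Without vehicle replicate 3 the count of fibroblast markers was again 1, but the gene was Col3a1 (2.92% of all tested genes were called lower there). Dcn, a matrix proteoglycan and the most abundant of these, had a log2 fold change of -0.20.

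Itga6 and Itgb4 form a laminin receptor of epithelia and of Schwann cells, the glia that wrap axons, and Itga6 also pairs with Itgb1 in endothelium. Itga6 had normalized counts of 1102, 1225 and 1439 with vehicle and of 1078, 1150 and 1176 with BML-260, with overlap. The log2 fold change of Itga6 was -0.15 (SE 0.14, 95% interval -0.48 to 0.18). Itgb4 had 212, 199 and 640 with vehicle and 243, 240 and 370 with BML-260. With all libraries the log2 fold change of Itgb4 was -0.31 (SE 0.44, 95% interval -1.31 to 0.70), and without vehicle replicate 3 it was 0.46 (95% interval -0.052 to 0.97), so that its direction depended on that library. Itgb4 overlaps the end of Galk1 on the other strand, which had between 54 and 194 reads in each library.

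Schwann cell markers were also highest in 1 vehicle library. All 8 peaked in vehicle replicate 3, whose summed level was 118 TPM, against 26.1 and 28.3 TPM in the other vehicle libraries and 38.0 to 39.4 TPM with BML-260. With all libraries 0 of the 8 were called (median log2 fold change -0.30), against 5.75% of all tested genes. Without vehicle replicate 3 the number was 3, all higher with BML-260 (Mbp and Prx among them, median of the list 0.58). Without that library, 175 of all 16502 tested genes were called higher. Mbp, the myelin basic protein, had normalized counts of 442, 469 and 1773 with vehicle and of 625, 611 and 631 with BML-260. Prx, which encodes periaxin of the same cells, had 218, 180 and 976 with vehicle and 315, 261 and 396 with BML-260. Pmp22, another myelin protein and the most abundant of the list, had 587, 642 and 1537 with vehicle and 842, 680 and 705 with BML-260 (log2 fold change -0.31, and 0.27 without vehicle replicate 3). The part of nerve tissue in the Itgb4 values was not tested. Keratinocytes are another setting in which Itgb4 is known. Of 6 keratinocyte markers, Krt5, Krt14 and Krt15 had 0 reads in every library. The 2 listed with TPM had a summed level of 6.01 to 10.4 TPM with vehicle and 4.24 to 6.08 TPM with BML-260. Trp63 was called lower, with its values given below.

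**Figure D3:**
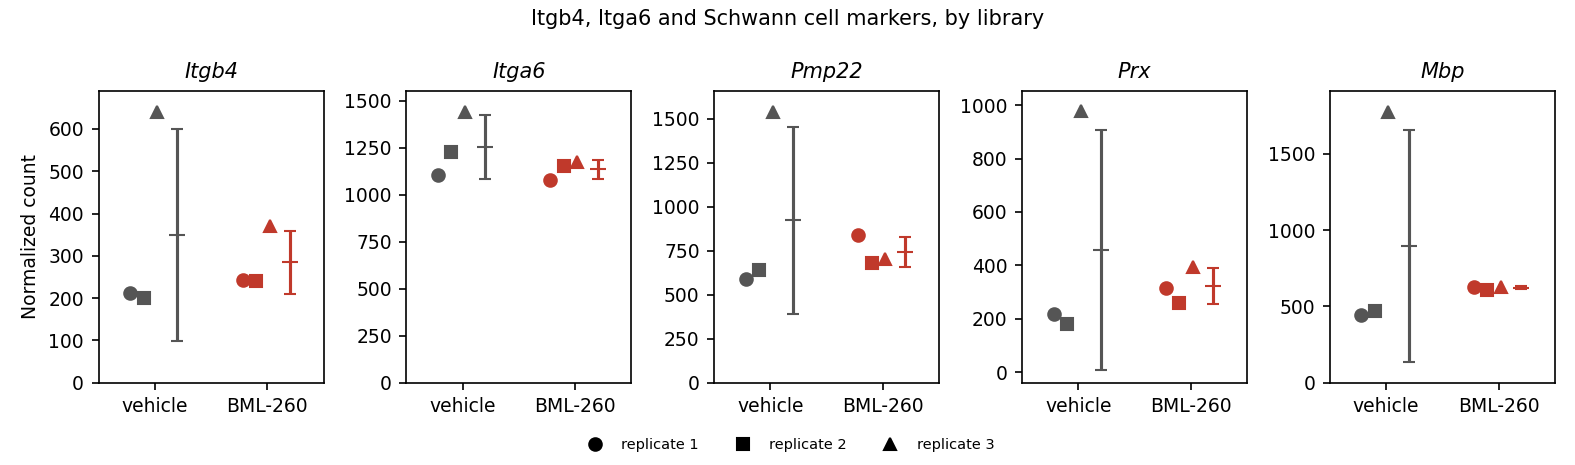
Normalized counts of Itgb4, Itga6 and 3 Schwann cell markers in each library, with the mean and SD of each group (n = 3) to the right of its points. Vehicle replicate 3 (grey triangle) is the highest library in every panel, and for Itgb4 and the markers the BML-260 points lie above the other vehicle libraries.

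The fold changes of the 10 genes are set side by side in the plot with and without vehicle replicate 3. With all libraries 8 of the 10 were below 0 (50.5% of all tested genes were), with a median log2 fold change of -0.23. Without vehicle replicate 3 the number below 0 was 7 and the median -0.074. The number of integrin genes called was 2 in both cases, and 3.98% of all tested genes were called without that library (2.92% lower).

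**Figure D4:**
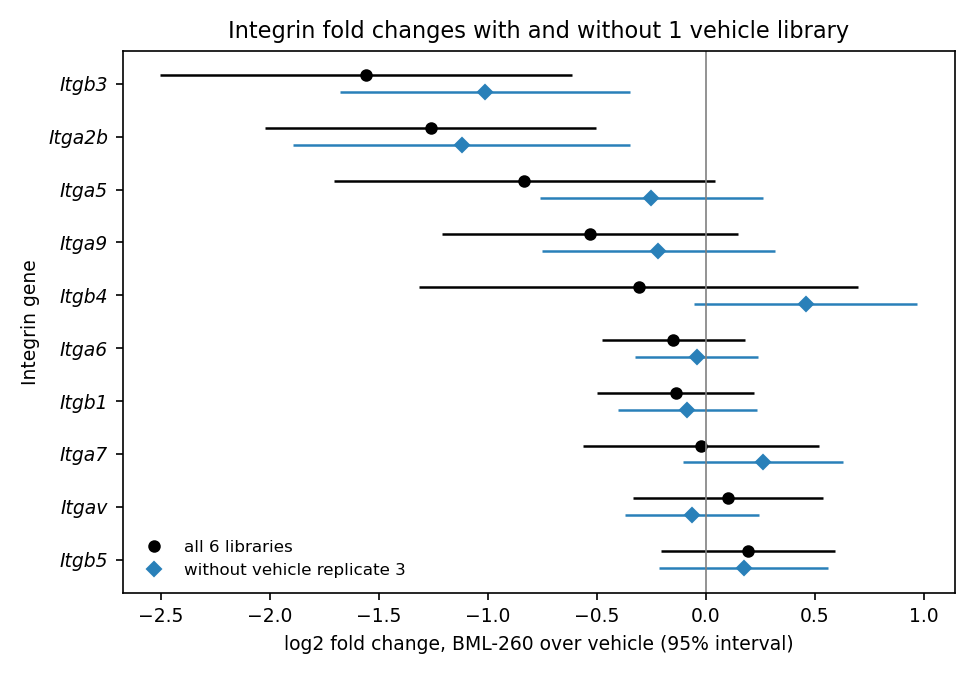
Log2 fold change of BML-260 over vehicle for each integrin gene with its 95% interval, from all 6 libraries (black) and without vehicle replicate 3 (blue). The intervals of Itgb3 and Itga2b lie below 0 in both analyses, and Itgb4 moves from -0.31 to 0.46.

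Shares were taken as the part of each gene in the summed TPM of the 6 alpha or 4 beta genes described here. Other subunits lie outside these sums, among them Itgb6 (mean 23.0 TPM with vehicle, 28.7 with BML-260) and Itga1 (7.95 and 7.01 TPM). The shares therefore do not describe all integrins of the muscle. The alpha sum was 55.8, 54.7 and 114 TPM with vehicle and 52.4, 60.7 and 71.8 TPM with BML-260. Itga7 made up 57.8%, 54.3% and 66.7% of it with vehicle and 59.4%, 58.7% and 67.5% with BML-260. The mean share of Itga7 was higher by 2.29 percentage points with BML-260, within the spread of the libraries (exact permutation test, 2-sided, p = 0.5, Benjamini-Hochberg adjusted p = 0.5 over 2 tests). With 1 library left out this difference lay between -0.524 and 5.84 percentage points, highest without vehicle replicate 3, and its sign turned without vehicle replicate 2 (-0.358) or BML-260 replicate 3 (-0.524). The share of Itgav was 23.2%, 23.1% and 11.0% with vehicle and 23.9%, 24.1% and 15.6% with BML-260, lowest in the third replicate of both groups. Itga2b and Itga5 had lower shares in every BML-260 library than in any vehicle library, at means of 1.51% and 4.82% with vehicle and 0.645% and 2.96% with BML-260. Of the beta sum, Itgb1 made up 61.8%, 70.4% and 64.8% with vehicle and 61.2%, 65.8% and 56.7% with BML-260. Its mean share was lower with BML-260 (BML-260 minus vehicle -4.42 percentage points), again within the spread (exact permutation test, 2-sided, p = 0.4, adjusted p = 0.5 over the same 2 tests). With 3 libraries in each group this test cannot give a p under 0.1. Itgb5 held nearly all of the rest of this sum of 4 beta genes, with a mean share of 32.2% with vehicle and 37.3% with BML-260.

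**Figure D5:**
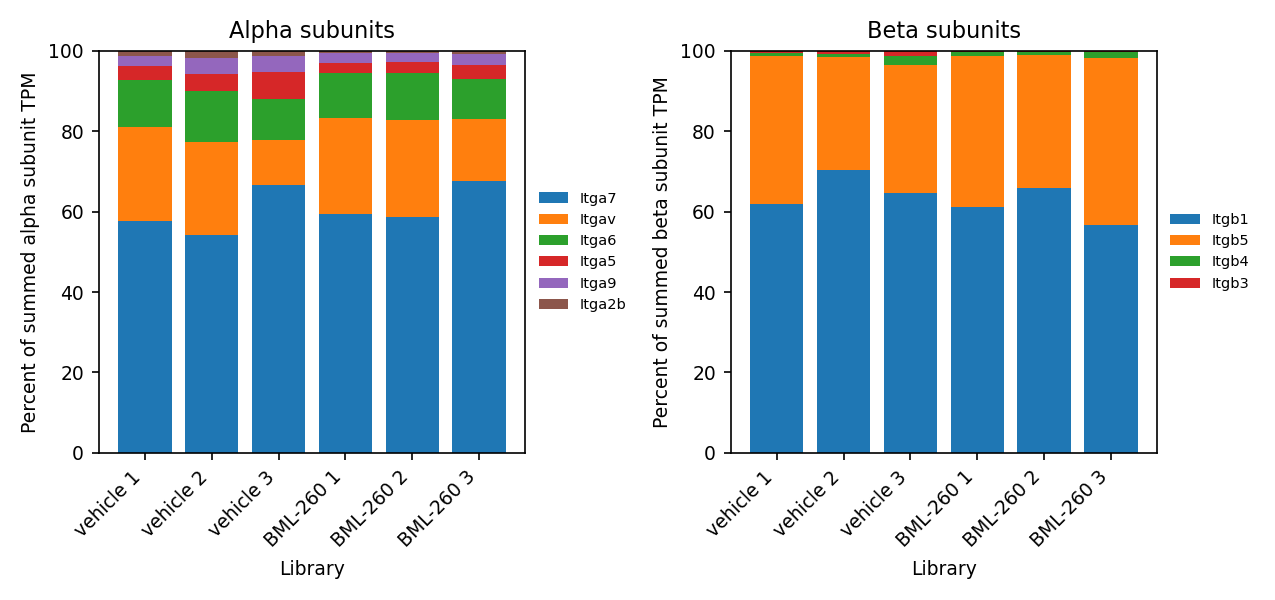
Share of each alpha gene (left) and each beta gene (right) in the summed TPM of its family, in percent, 1 bar for each library. Itga7 and Itgb1 hold the largest share in every library, and the share of Itga2b is at most 1.87%.

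Beyond these genes, 17 further integrin subunits were listed, of which 15 were tested. Called lower were Itgam and Itgb2, the chains of the complement receptor of myeloid cells, and called higher was Itga4, which binds VCAM1 and fibronectin (2 lower and 1 higher of 15, with a median log2 fold change of -0.38). Over all tested genes, 4.86% were called lower and 0.896% higher. Itgam had normalized counts of 206, 184 and 782 with vehicle and of 109, 98.0 and 145 with BML-260 (log2 fold change -1.74, SE 0.54). Itgb2 had 149, 187 and 444 with vehicle and 107, 103 and 114 with BML-260 (log2 fold change -1.27, SE 0.39). Itga4 had 1253, 1304 and 403 with vehicle and 1655, 2534 and 1743 with BML-260 (log2 fold change 1.00, SE 0.40). For all 3 the groups did not overlap (6.70% of all tested genes lay apart in the lower direction and 5.43% in the higher), and without vehicle replicate 3 all 3 were still called, with log2 fold changes of -0.74, -0.64 and 0.62. Itgb6, a beta subunit known from epithelia, had the highest TPM of this list. Its level was 27.3, 35.2 and 6.52 TPM with vehicle and 27.5, 34.2 and 24.4 TPM with BML-260, above that of Itgav in every library except vehicle replicate 3. For Itgb6 the log2 fold change was 0.33 (SE 0.58), and -0.15 without vehicle replicate 3.

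The matrix and plasma ligands of integrins were called only when vehicle replicate 3 was included. Of 29 listed, 25 were tested, of which 4 were called lower and 1 higher (4.86% and 0.896% of all tested genes). The median log2 fold change was -0.18. Among those lower were Thbs1 (thrombospondin, log2 fold change -1.54), Postn (periostin, -0.86) and Ccn2 (connective tissue growth factor, -0.87), and Vtn, the vitronectin that Itgav and Itgb5 bind, was called higher (0.44). Thbs1 had normalized counts of 653, 694 and 3468 with vehicle and of 682, 429 and 540 with BML-260, and its log2 fold change was -0.29 without vehicle replicate 3. Vtn had 446, 384 and 313 with vehicle and 459, 515 and 578 with BML-260. Without vehicle replicate 3, 0 of the 25 were called in either direction. Lama2, the laminin chain that Itga7 binds in the fiber basement membrane, had a value of -0.20 on the same scale (SE 0.20), and Ccn1, a matricellular protein with the highest mean TPM of the list, one of -0.065. The fibrinogen chains Fga and Fgb had 0 reads in every library.

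Of 25 adaptors and focal adhesion genes, 24 were tested, and 1 was called, against 5.75% of all tested genes. That gene was Fermt3, the kindlin of blood cells that activates integrins, with normalized counts of 108, 131 and 272 with vehicle and of 57.04, 61.0 and 64.8 with BML-260. For Fermt3 the log2 fold change was -1.49 (SE 0.36), and -0.97 without vehicle replicate 3, where it was still called. Fermt2, the kindlin of muscle and other solid tissues, had one of 0.19 (SE 0.16). The median of the list was 0.0017. Flnc, the muscle filamin with the highest mean TPM of the list, had a log2 fold change of -0.089, and Itgb1bp2, which encodes the muscle protein melusin that binds the Itgb1 tail, one of 0.094. Both signs turned without vehicle replicate 3, to 0.42 for Flnc and -0.29 for Itgb1bp2.

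The genes whose pattern over the 6 libraries was most like that of Itga2b and Itgb3 were sought among all tested genes by the root mean square difference of log2 CPM, each gene centred on its own mean. For Itga2b these were Fgd3 (0.117), Ripor3 (0.147) and Ucp2 (0.149), and for Itgb3 they were Kcnf1 (0.0973), BB123696 (0.137) and F5 (0.140), which encodes coagulation factor V. The difference between Itga2b and Itgb3 was 0.381, which placed Itgb3 at rank 286 from Itga2b and Itga2b at rank 157 from Itgb3.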

How the data were processed

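RNA-Seq covered TA muscle from 6 mice, 3 for each treatment. Per the labels' processing notes, the authors used HISAT2 2.1.0, StringTie 2.1.3b, Trimmomatic 0.38 and Bowtie2 2.3.4.1 with the mm10 build. The authors deposited raw read counts per gene in 1 table of 6 libraries, and TPM values, scaled for transcript length and library total, in 1 file for each library. The annotation and the rules for strand and shared reads are not given in the sources used here.

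Genes were kept by filterByExpr (16188 genes, 99.9% of counts), scaled by TMM and tested in R 4.3.3 with edgeR 4.0.16 (quasi-likelihood test, no replicate block). Standard errors are the log2 fold change divided by the square root of F, and 95% intervals use edgeR's total degrees of freedom. DESeq2 1.42.0 gave size factors and a Wald test, and limma 3.58.1 a test of TPM on the log2 scale (pseudocount 1 or 0.1). Other alternatives were RLE scaling, other filters, a replicate block and leaving out each library. The edgeR script was tested on simulated data. Figures used matplotlib 3.10.9 in Python 3.11.15.

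The genes described and all lists (other integrin subunits, ligands, adaptors, and markers of platelets, endothelium, fibers, satellite cells, macrophages, neutrophils, Schwann cells, fibroblasts, mural cells and keratinocytes) were chosen with earlier results of these data known. Named from a list were its called members, at most the 6 with the smallest p, and its member of highest mean TPM, and any other gene was named after its values were seen. Some list members are not reported here by name, though the counts and medians include them. p-values measure the spread between these libraries, 1 from each mouse.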

Additional observations from a re-analysis of the deposited data

How the results depend on the processing

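Itga2b and Itgb3 were called, lower with BML-260, in all 13 alternative analyses, with log2 fold changes between -1.47 and -0.57 for Itga2b and between -1.84 and -0.74 for Itgb3. Adjusted p values lay between 0.0624 and 0.984 over these analyses and both genes (edgeR, DESeq2 and limma with Benjamini-Hochberg adjustment). The smallest changes, -0.57 and -0.74, came from limma on log2 TPM with a pseudocount of 1, which is large beside the TPM of these genes. With a pseudocount of 0.1 the values were -1.23 for Itga2b and -1.43 for Itgb3. Over all genes, 931 were called. The count was 1416 without the filter on low counts, 446 with limma on log2 TPM and a pseudocount of 1, and between 503 (without BML-260 replicate 2) and 2223 (without vehicle replicate 1) when 1 library was left out. The number of integrin genes called was between 2 and 4 when 1 library was left out, with Itga5 and Itga9 added without vehicle replicate 1. Itga5 was also called with no filter, without vehicle replicate 2 and in DESeq2's Wald test. With the replicate number as a block, 1057 genes were called, 736 of them shared with the 931, and 3 integrin genes (Itga5 added). Same-numbered libraries share only a number: the correlations of their deviations across genes were 0.162, 0.0541 and 0.110. Each vehicle library correlated best with the BML-260 library of its own number, a hint from the data only. The best match of each BML-260 library was not sought. With 1 library left out, Itga7 ranged from -0.19 to 0.26, Itgav from -0.064 to 0.21 and Itgb4 from -0.58 to 0.46. The sign of Itga7 turned in 4 analyses, to 0.0047 with the block, 0.26 without vehicle replicate 3, 0.063 without BML-260 replicate 1 and 0.056 without BML-260 replicate 2. Itgav turned to -0.064 without vehicle replicate 3, and to -0.0013 and -0.0019 in limma on log2 TPM with a pseudocount of 1 and 0.1, where the median over all genes shifted to -0.089 and -0.14. Itgb4 turned to 0.46 without vehicle replicate 3. The cause was not tested. The share difference of Itga7 turned sign without vehicle replicate 2 or BML-260 replicate 3, and that of Itgb1 lay between -6.69 and -2.05 percentage points with 1 library left out. Leaving out vehicle replicate 3 for the other gene lists was chosen after seeing the data.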

Other observations

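Mural cells, the pericytes and smooth muscle cells around vessels, had 0 of 6 markers called (median log2 fold change -0.0064), against 5.75% of all tested genes. The most abundant of them, Rgs5, had a log2 fold change of 0.18. Satellite cell markers had 0 of 5 called, with a median of 0.045, and Chodl had the highest mean TPM of them. Of 6 keratinocyte markers 2 were tested, and Trp63 was called lower (4.86% of all tested genes were). It had normalized counts of 563, 961 and 693 with vehicle and of 419, 394 and 552 with BML-260. For Trp63 the log2 fold change was -0.70 (SE 0.23), and -0.75 without vehicle replicate 3, where it was called as well (2.92% of all tested genes were called lower there). Which cells the Trp63 reads came from was not tested.

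Among the integrin subunits that were too low to be tested, Itgad was seen in vehicle replicate 3 only, with 24 reads. Itgb2l, a beta subunit close to Itgb2, had a normalized count of 108 in vehicle replicate 3, 3.81 in vehicle replicate 2 and 0 reads in the other 4 libraries.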
